A study of Mus musculus with 30 samples.

Results

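The 87 genes of the mouse cytosolic ribosomal protein set were followed in the ventral prostate of 30 mice, out of 39179 genes counted. The members were the protein-coding genes whose symbol is Rpl or Rps followed by a number, together with Rplp0, Rplp1, Rplp2, Rpsa and Fau, and without the Rps6k kinases and the copies named as pseudogenes. The rule used symbols only and no measured value, but the set was chosen with earlier results of these data known. It took in 46 genes of the large subunit and 32 of the small subunit, 7 paralogs (Rpl3l, Rpl7l1, Rpl10l, Rpl22l1, Rpl36al, Rpl39l and Rps27l), the retrogene Rps27rt, and Rps19bp1, which is named for binding the ribosomal protein S19 and is not itself a ribosomal protein.

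C57BL/6 males received, from weaning, one of 3 diets of normal fat content made with linseed oil (LO, rich in ω-3 fatty acids), soybean oil (SO, rich in ω-6) or lard (PF, rich in saturated fatty acids). The ventral prostate, a lobe of the gland that secretes into the semen, was taken after 12 or 32 weeks of feeding, giving 6 groups of 5 mice, and polyadenylated RNA was sequenced from each mouse. All 30 mice were fed one of the 3 fats, and the labels name no mutation or drug. Time on the diet is also age, and any difference in handling between the 12- and 32-week libraries cannot be told apart from it.

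A ribosome is built from a small subunit, which reads the mRNA, and a large subunit, which joins the amino acids, and each of the ribosomal proteins is needed in about equal number. The genes are usually regulated together: their mRNAs begin with a C followed by a run of pyrimidines, the 5′ terminal oligopyrimidine or TOP motif, through which the growth kinase mTORC1 and its partner LARP1 control their translation and stability. In a secretory epithelium such as the ventral prostate, which makes large amounts of a few secreted proteins, they are among the most abundant mRNAs. Because RNA came from whole tissue, fewer cells of a type and less of the mRNA per cell cannot be told apart here.

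Start sites of 8 members described further on are shown because a shared start is the textbook feature of this gene set, 6 of them chosen for holding such a run and 2 for lacking it. Promoter entries from RefSeq (build GRCm38.p6) matched 67 of the 87 members. Each line gives 15 bases before and 15 from the annotated start, read 5′ to 3′ on the gene's strand, with the longest run of a C and at least 4 further pyrimidines in capitals.
Rps6 (chr4:86857353-86857382, minus strand): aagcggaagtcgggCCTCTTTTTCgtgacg
Fau (chr19:6057932-6057961, plus strand): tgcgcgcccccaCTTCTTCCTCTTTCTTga
Rpl4 (chr9:64173372-64173401, plus strand): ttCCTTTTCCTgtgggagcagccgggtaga
Rplp2 (chr7:141447636-141447665, plus strand): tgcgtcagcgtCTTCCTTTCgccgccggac
Rpl13a (chr7:45128731-45128760, minus strand): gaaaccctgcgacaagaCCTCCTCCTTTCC
Rps24 (chr14:24490663-24490692, plus strand): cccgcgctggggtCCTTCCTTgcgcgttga
Rps4x (chrX:102189377-102189406, minus strand): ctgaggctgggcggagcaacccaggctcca
Rpl9 (chr5:65391417-65391446, minus strand): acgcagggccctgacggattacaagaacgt
Such a run lay within the 30 bases of at least 1 annotated start in 44 of the 67 members (65.7%), against 40.3% of all 27025 genes with an entry and 43.3% of the 11986 of them that passed the count filter. The letters CCGGAA, which hold the core bound by ETS factors, stood on either strand of the 300-base promoter in 36 of the 67 members (53.7%), against 16.7% of all genes with an entry and 28.2% of those past the count filter. The windows of Rps4x and Rpl9 held no such run at their annotated starts, nor did those of Rplp0, Rpl5, Rpl10, Rpl11, Rpl41, Rpsa and Rps3a1 or a second annotated start of Rps24, which says only that the letters are not in these windows.

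Depth was similar in all libraries, with 27590631 to 41301707 counts on genes per mouse, and 16.0% to 20.3% of counted alignments were set aside because they fitted more than 1 place. Many members have processed pseudogenes, with which they share sequence. The genes defining the labelled tissue were present: the 6 ventral prostate secretion genes, among them Sbp, Pbsn and Spink1, summed to between 110900 and 338900 CPM (counts scaled to a common library total) in every mouse, and the 5 seminal vesicle genes summed to at most 0.276 CPM in any mouse. Levels below are CPM scaled with edgeR's TMM factors, unless a scale is named, and fold changes are on the log2 scale.

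Of the 87 members, 85 passed the low-count filter over the 6 groups. Rpl10l, a testis-expressed copy of Rpl10, had 0 counts in every mouse, and Rpl39l, a germ-line copy of Rpl39, had 0.367 counts on average. Rpl3l, the striated-muscle copy of Rpl3, passed with a mean of 15.5 counts per mouse and a range from 0 to 132. Rpl24 was listed at 8 to 49 counts per mouse, but the annotated transcript Gm28037 overlaps it on the same strand over 5093 bases, so reads there are ambiguous and its level is uncertain.

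Per length, the members spread over a wide range. In CPM per kilobase of the main transcript, Rpl10 (1809), Rpl32 (1181) and Rps4x (1119) were highest. Rpl10l (0) and Rpl39l (0.0130) were lowest, followed by Rpl3l at 0.336 CPM per kilobase. Rps19bp1 stood at 16.3 and Rpl7l1, a paralog of Rpl7 without a known place in the mature ribosome, at 30.8, whereas Rpl41 (1057), which encodes the shortest of the ribosomal proteins, and the retrogene Rps27rt (1042) were among the 6 highest. A read that fits more than 1 place is set aside, which can happen where sequence is shared with another gene. Windows of 100 bases shared with another gene's transcript made up 98.4% of the main transcript of Rps27 and 91.1% of that of Rpl5. They made up 5.14% of that of Rpl4 and 91.6% of that of Rpl10, the highest member per length. Over 79 members, without paralogs and Rps19bp1, level per length correlated with this share at a Spearman's rho of 0.0834. A level per length may not be measured with the same yield in all members, and how far shared sequence lowers it was not tested.

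As a single measure per mouse, a score was taken as the mean log2 CPM over the 85 members that passed the filter, together with the share of all gene counts that fell on the 87 members. The share ran from 2.79% to 5.26% of counts over the 30 mice. At 12 weeks the score was 8.15 ± 0.137 (SD, n = 5) on LO, 8.23 ± 0.172 (n = 5) on SO and 8.27 ± 0.0930 (n = 5) on PF. At 32 weeks it was 8.25 ± 0.125 (n = 5) on LO, 8.12 ± 0.142 (n = 5) on SO and 8.33 ± 0.297 (n = 5) on PF. Every pair of groups overlapped in the score, and no mean differed from another at the same time by more than the pooled SD, except PF and LO at 12 weeks, which were 0.12 apart with a pooled SD of 0.117.

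**Figure D1:**
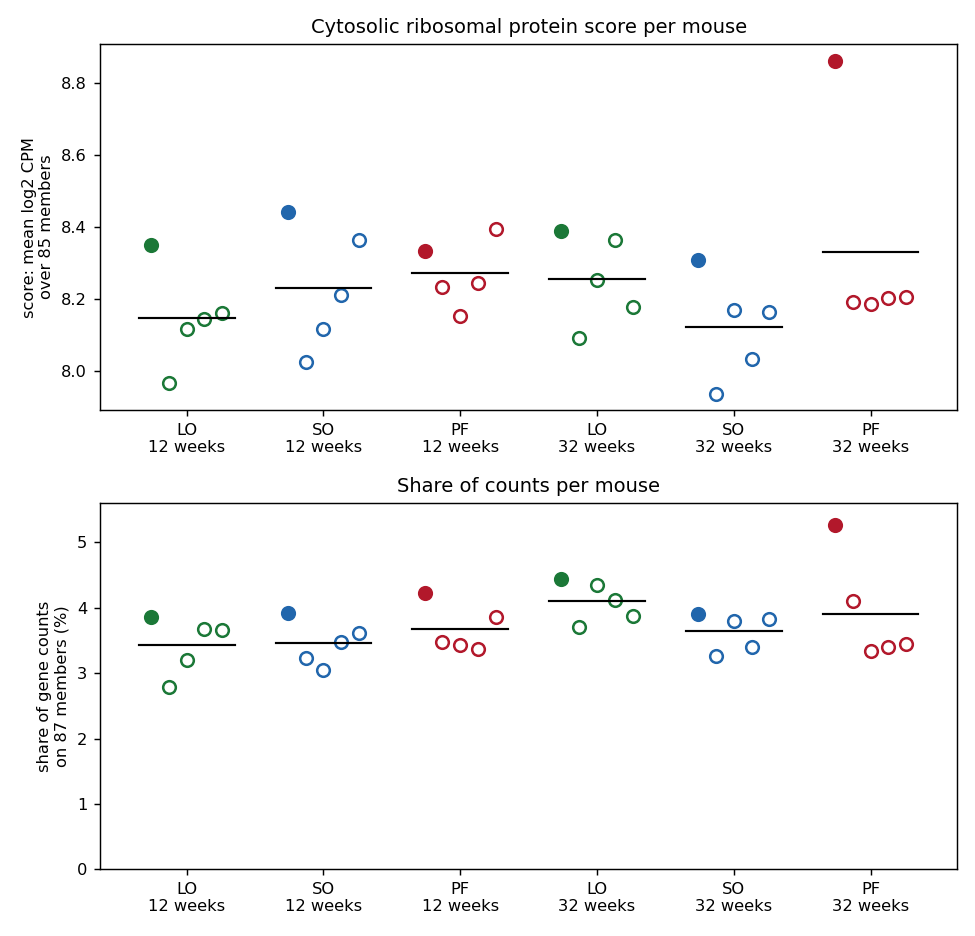
The score (mean log2 CPM over 85 members, top) and the share of gene counts on the 87 members (percent, bottom) for each mouse, in columns by diet and time. Filled points are the mice numbered 1, open points mice 2 to 5 from left to right, and bars are group means. Mouse 1 of the PF group at 32 weeks lies at 8.86, and the other 4 mice of that group lie between 8.19 and 8.21.

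Within groups the mice numbered 1 were mostly the highest, and the other numbers had a less fixed place. In all 6 groups the mouse numbered 1 had the highest share of counts on the members, and in 5 of 6 groups it had the highest score. In the PF group at 12 weeks mouse 5 (8.39) was above mouse 1 (8.33). Mice numbered 1 stood on average 0.22 log2 units above their group means, with a range from 0.0610 to 0.531. Mice numbered 2 were lowest in 4 of the 6 groups, on average by 0.152 below the mean (-0.152). Those numbered 3, 4 and 5 lay on both sides of their group means, from -0.144 to 0.0455, -0.126 to 0.108 and -0.124 to 0.132. The labels say nothing of what the number stands for beyond naming the mouse.

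Mouse 1 of the PF group at 32 weeks stood furthest from its group, with 5.26% of its counts on the members against 4.10%, 3.34%, 3.41% and 3.44% in mice 2 to 5. With it, the PF mean was the highest of the 3 diets at 32 weeks. Without it the mean score of the other 4 PF mice was 8.20, and the LO mean at that time was 8.25. Values of the members for this group are also given without this mouse or without all mice numbered 1. Fold changes of other gene lists are given with all mice only.

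The members did not all follow the score. After the group means were taken out, 59.1% of the members' variance over the 30 mice lay on 1 component and 25.5% on a second. Spearman's correlation of a member with the score, over 30 mice that share scaling and base composition, was above 0.8 for 41 members and under 0.2 for 19. Rpl13a (0.966), Rps10 (0.963), Rps12 (0.962), Rps28 (0.950) and Rpl10a (0.947) were closest to it. Rps27l (-0.276), Rpl22l1 (-0.229), Rpl5 (-0.0114), Rps27 (-0.00200) and Rpl7 (0.00601) were among the furthest from it.

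Base composition moved with this division. The 41 members near the score had a median GC content of 53.6% in their main transcript, and the 19 far from it 48.2%. In the 30 members of lowest GC content the mice numbered 1 stood a median of -0.12 log2 units from mice 2 to 5, in the 25 of middle GC content 0.12, and in the 30 of highest GC content 0.54. Over all 16428 genes with a known transcript sequence, the same difference correlated with GC content at a Spearman's rho of 0.648, so it was not particular to the members. Across the 85 members the rho was 0.656 with GC content and -0.0307 with transcript length. Over all genes the rho with transcript length was -0.155. In mouse 1 of the PF group at 32 weeks, the deviation from the group mean correlated with length over all genes at -0.419. In the other mice numbered 1 that rho lay between -0.177 and 0.0637. The part of base composition in the differences between diets was not tested, and values with a trend over GC content and length taken out are given beside them.

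**Figure D2:**
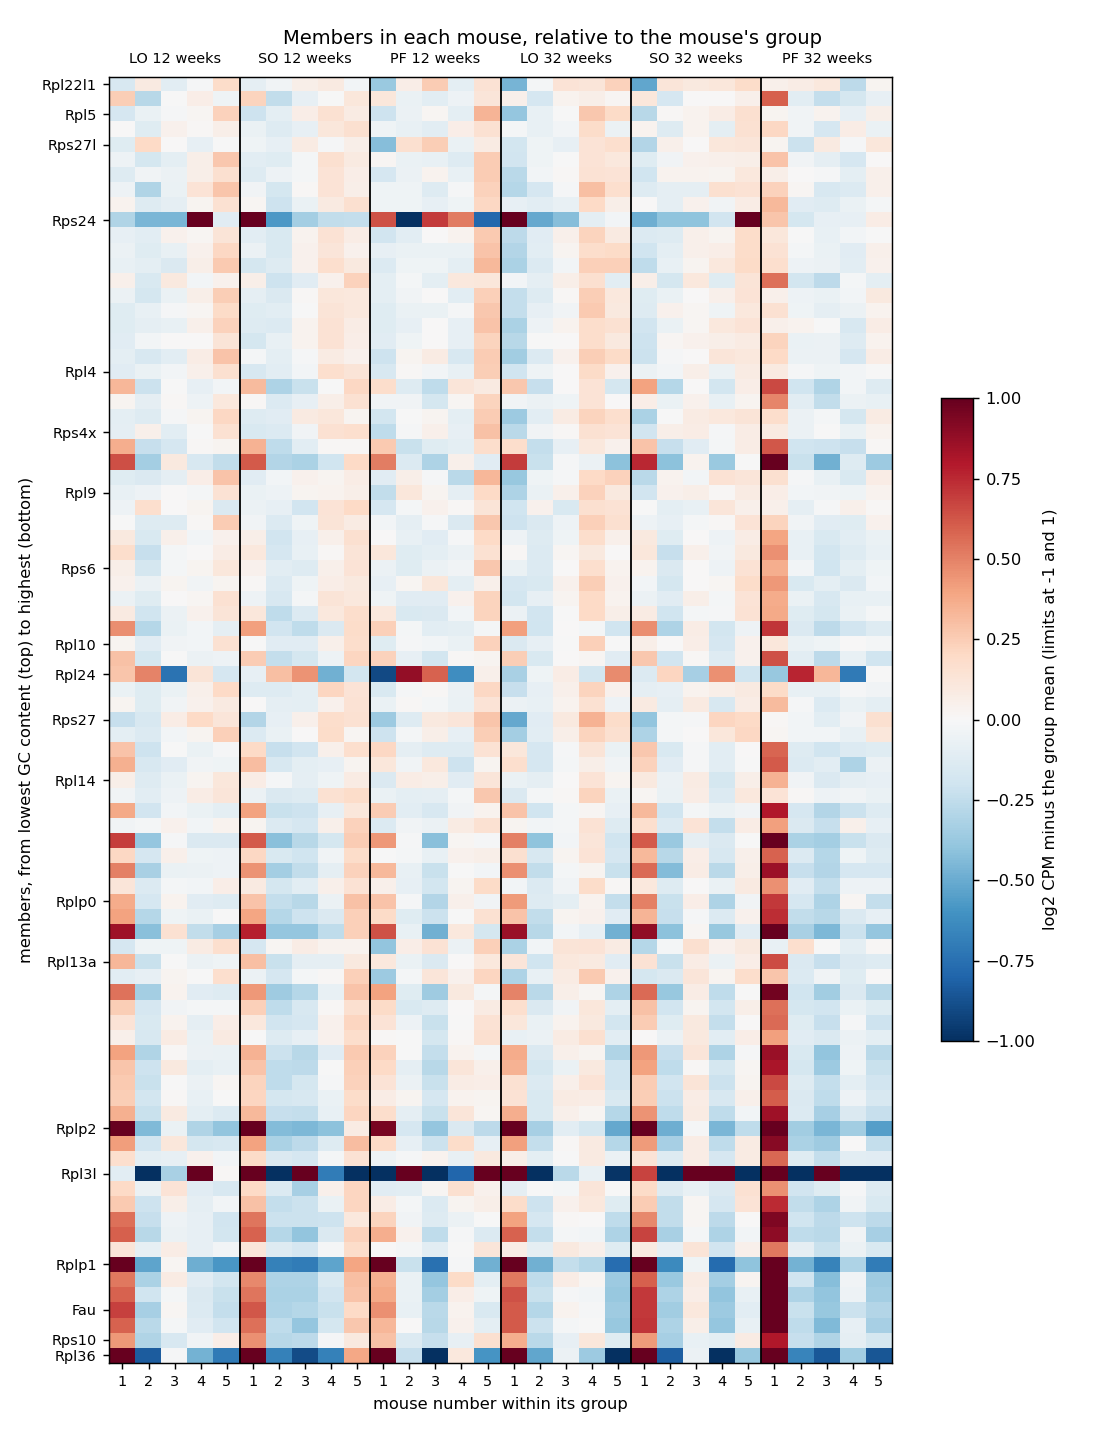
Each row is 1 of 85 members, ordered from 40.6% GC content at the top to 60.8% at the bottom, and each column a mouse, numbered 1 to 5 within its group. Colour is log2 CPM minus the mean of the mouse's group, with red above and blue below and the scale ending at -1 and 1. Some members described in the text are labelled. The first column of a group is mostly pale at the top and red at the bottom, most strongly in the PF group at 32 weeks, and the row of Rps24 shows strongly coloured cells in 5 of the 6 groups.

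The stalk protein genes Rplp1 and Rplp2 and the large-subunit gene Rpl36 showed this division at its widest. The stalk is the flexible arm that draws elongation factors to the ribosome, and Rplp0 is its base. Rplp1 stood at 1020 CPM in mouse 1 of the LO group at 12 weeks and between 227 and 345 in the other 4. It stood at 1383 in mouse 1 of the PF group at 32 weeks and between 192 and 251 in the other 4. In all 6 groups mouse 1 was highest for Rplp1, from 964 to 1383 CPM, and the next highest value was 498 in mouse 5 of the SO group at 12 weeks.

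Rpl36 lay between 241 and 382 CPM in the 6 mice numbered 1 and between 22.7 and 93.6 in the other 24. Rplp2 was 1.55 log2 units higher in the mice numbered 1 than in mice 2 to 5. Rplp0 varied less: at 32 weeks it was 1436 CPM in mouse 1 and 902 to 1094 in mice 2 to 5 on LO, 1379 and 786 to 1021 on SO, and 1782 and 880 to 1106 on PF. The gap at Rplp0 was in the same direction and smaller. Rpl4, of low GC content, went the other way and was lowest in mouse 1 in 5 of the 6 groups, with mouse 1 of the PF group at 32 weeks the exception.

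**Figure D3:**
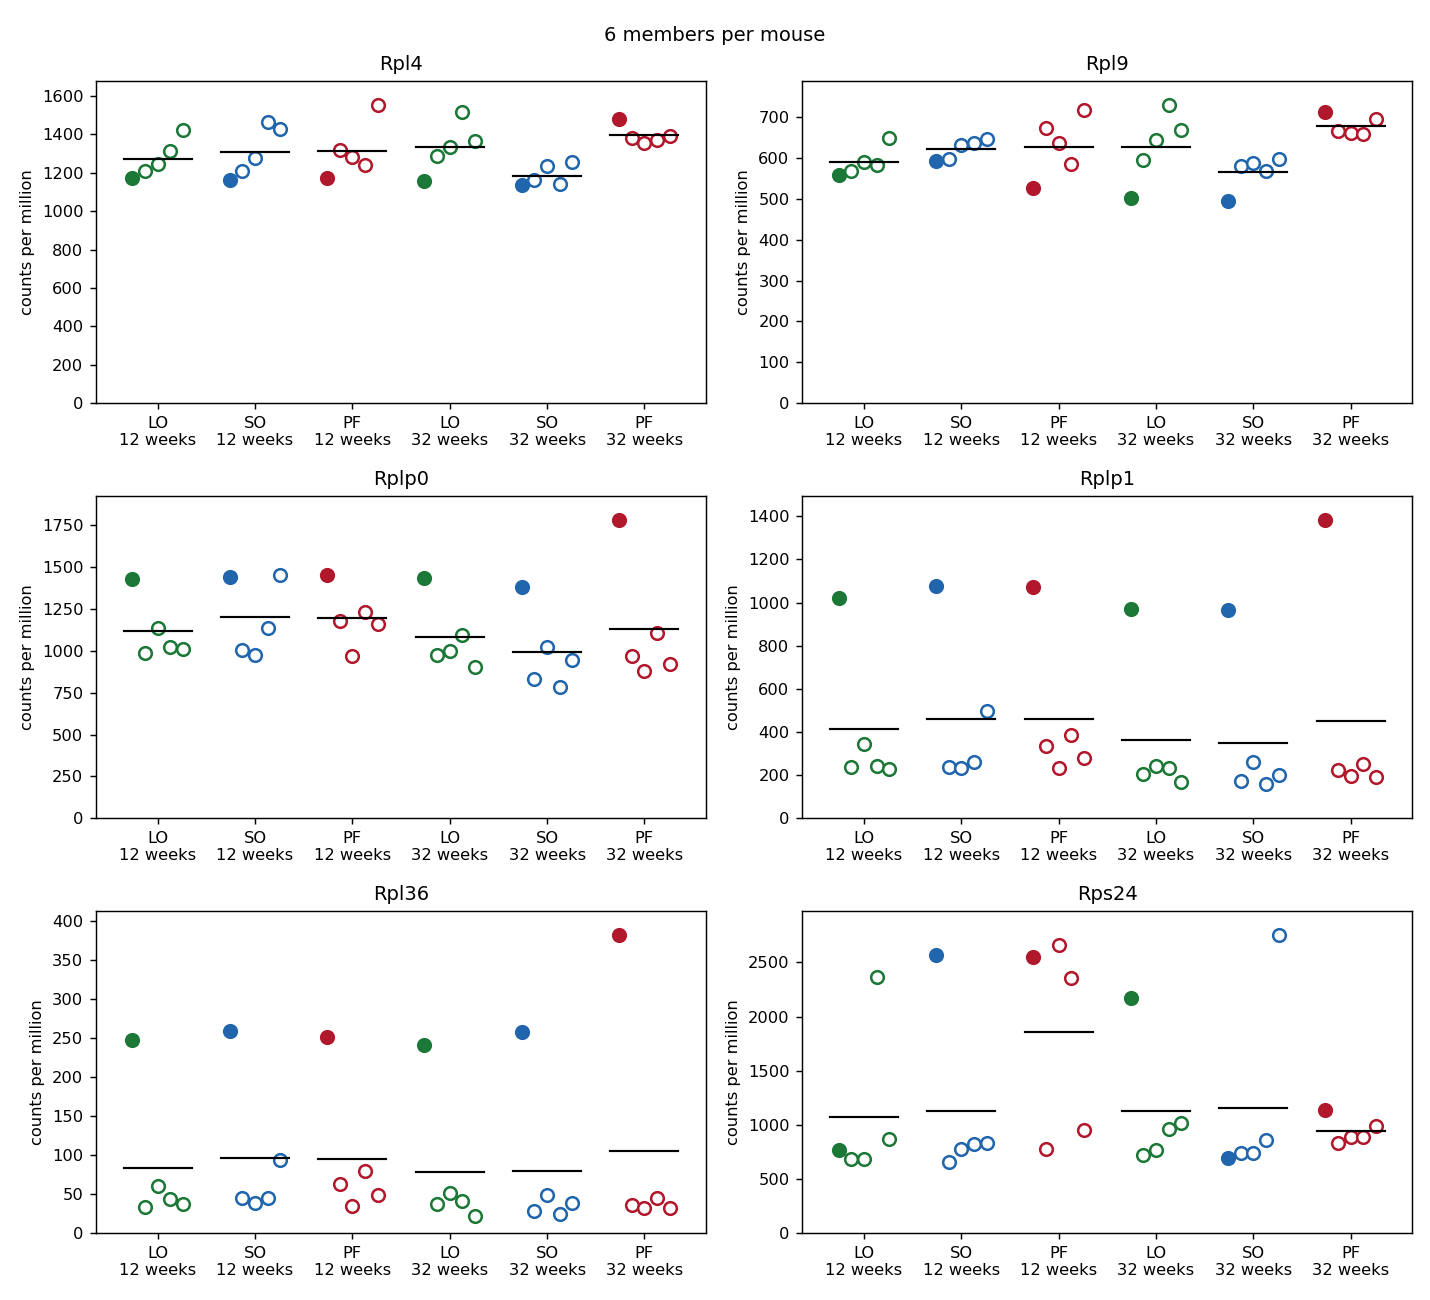
CPM of Rpl4, Rpl9, Rplp0, Rplp1, Rpl36 and Rps24 in each mouse, in columns by diet and time, with the mice numbered 1 filled, mice 2 to 5 open and bars for group means. Rplp1 and Rpl36 stand apart in every mouse numbered 1, Rpl4 and Rpl9 do not, and Rps24 stands between 2172 and 2752 in 7 mice and between 659 and 1141 in the other 23.

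Rps24, a small-subunit protein with several spliced forms, varied in steps, and no other member had the same mice at its top. At 12 weeks it stood at 767, 689, 690, 2370 and 871 CPM in LO mice 1 to 5. At the same time it was 2573, 659, 776, 828 and 833 on SO and 2551, 779, 2664, 2357 and 952 on PF. No mouse lay between 1141 and 2172 CPM, so the values formed a low range of 23 mice and a high range of 7. At 32 weeks the values were 2172, 727, 771, 966 and 1017 on LO, 699, 740, 742, 859 and 2752 on SO and 1141, 832, 887, 887 and 991 on PF. Of the 7 mice in the high range 3 were PF mice at 12 weeks, and none was a PF mouse at 32 weeks. The same 7 mice also stood apart from the other 23 at 6 genes outside the set, widest at Akr1e1, with 0 to 0.134 CPM against 24 to 46.2. Whether these mice differ from the others in genetic background was not tested, and the differences of Rps24 between diets and times given below follow how many of the 7 each group holds.

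The question of the diet comparisons was whether the fat in the diet changed gene expression in the gland. For the ribosomal protein genes the widest difference lay between PF and SO at 32 weeks. No member passed an adjusted p of 0.05 in edgeR's quasi-likelihood test (smallest adjusted p = 0.328), and neither did any other gene, so 0% of 16218 genes were called. The direction was nearly uniform: 83 of 85 members had a log2 fold change above 0, against 49.3% of all genes tested. The median member stood 0.28 higher on PF, with quartiles of 0.25 and 0.31, and the median of all genes was -0.0031.

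At an unadjusted p under 0.05, 39 of the 85 members were higher on PF and none lower, whereas 5.71% of all genes were higher on that count. These 39 are a description, since none passed the adjustment. In 14 members, Rpl4, Rpl5, Rpl9, Rpl10, Rpl17, Rpl22, Rpl32, Rpl39, Rps3a1, Rps4x, Rps15a, Rps23, Rps25 and Rps27a, every PF mouse lay above every SO mouse, and 0.974% of all genes did so. The study drew its own comparison of PF and SO from the same libraries, so these 14 are not independent evidence of a direction. With DESeq2, the study reported genes that differed between PF and SO at this time, most of them higher on PF, whereas edgeR called none here.

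Rpl4, a large-subunit protein that lines the exit tunnel of the nascent chain, had the smallest p. At 32 weeks it stood at 1481, 1383, 1354, 1370 and 1393 CPM on PF and at 1136, 1164, 1235, 1140 and 1254 on SO. Every PF mouse stood above every SO mouse, and LO mice spanned both, at 1158, 1289, 1334, 1519 and 1365. The log2 fold change was 0.26 (SE 0.0740, adjusted p = 0.328, edgeR). With DESeq2 it was the only member called, with an adjusted p of 0.0353, among 0.716% of genes called.

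Rps4x, the X-linked gene of a small-subunit protein, was 1284, 1163, 1204, 1152 and 1240 CPM on PF and 879, 1051, 1057, 997 and 1061 on SO at 32 weeks. Rpl9, from the base of the large-subunit stalk, was 712, 666, 663, 658 and 695 on PF and 494, 580, 587, 569 and 597 on SO. In both genes the 2 groups did not overlap, and mouse 1 was the highest of the PF group and the lowest of the SO group. The log2 fold changes were 0.28 (SE 0.0838, adjusted p = 0.344, edgeR) for Rps4x and 0.28 (SE 0.0866, adjusted p = 0.349, edgeR) for Rpl9. Rps27l, a p53-responsive copy of Rps27, was 134, 114, 141, 131 and 143 on PF and 88.8, 112, 109, 117 and 118 on SO, where 1 PF mouse fell inside the SO range, and it differed by 0.30 (SE 0.0896, adjusted p = 0.344).

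With all mice in the fit, the estimates were of similar size in members of different roles. Among the stalk genes the log2 fold change was 0.22 (SE 0.217) for Rplp0, 0.40 (SE 0.719) for Rplp1 and 0.43 (SE 0.508) for Rplp2. Rps6, the small-subunit protein phosphorylated by S6 kinase, had 0.28 (SE 0.106) and Rpsa, which is also known as the laminin receptor, 0.23 (SE 0.168). Rps27a, made as a fusion with ubiquitin, had 0.34 (SE 0.113), and Fau, made as a fusion with a ubiquitin-like protein, 0.34 (SE 0.313). Rpl5 and Rpl11, which with 5S rRNA form the particle that restrains Mdm2, had 0.28 (SE 0.107) and 0.27 (SE 0.121). Rpl3, at the peptidyl transferase centre, had 0.17 (SE 0.0825) and Rpl41 0.30 (SE 0.246). With all mice, the members differed more in the error than in the fold change, and for Rplp1 and Rplp2 the error was the larger. Without mouse 1 of the PF group the fold change was -0.029 for Rplp0, -0.70 for Rplp1 and -0.35 for Rplp2. It was -0.090 for Fau and -0.027 for Rpl41, while the median member stood at 0.11, so a similar size is not shown for these genes.

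The paralogs and their partners stood side by side. Rpl22, which binds RNA, had a log2 fold change of 0.25 (SE 0.0862) and its paralog Rpl22l1 0.39 (SE 0.137). Rpl36a had 0.28 (SE 0.109) and Rpl36al 0.36 (SE 0.122), Rps27 had 0.31 (SE 0.137), and Rpl39 had 0.32 (SE 0.109). Rpl7l1 had 0.090 (SE 0.0728) and Rps19bp1 0.30 (SE 0.13). The members below 0 were Rps24, at -0.26 (SE 0.389), where 1 SO mouse was in the high range, and Rpl3l, which is near the limit of counting.

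**Figure D4:**
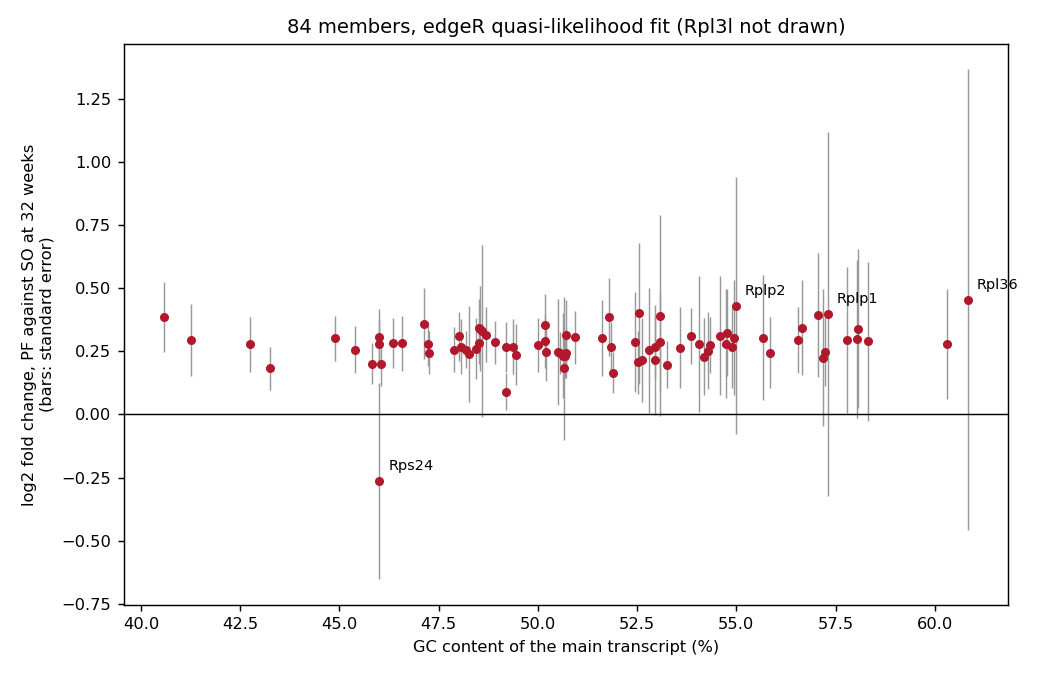
The log2 fold change of 84 members between PF and SO at 32 weeks (edgeR, bars are standard errors) against the GC content of the main transcript in percent, with Rpl3l left out for its low counts. The points lie in a band near 0.28 at every GC content, apart from Rps24 at -0.26, and the standard errors widen towards high GC content, up to 0.911 for Rpl36.

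The band lay at a lower level when the libraries that stand apart were left out. Without the mice numbered 1 the median member was 0.14 higher on PF and 83 of 85 members remained above 0, with 27 at an unadjusted p of 0.05. Without mouse 1 of the PF group alone the median was 0.11, and Rplp0, Rplp1, Rplp2, Fau, Rpl41 and Rpl36 turned below 0. With a trend over GC content and transcript length taken out of each mouse the median was 0.13, with 4 members at an unadjusted p of 0.05. The share of all genes at that limit is not given for these fits, so the counts of 27 and 4 say nothing particular of the members. Scaled by library sizes only, the median member was 0.13 and the median of all genes -0.15, so the distance between them was close to that under TMM.

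At 32 weeks LO also stood above SO, by a median of 0.15 over the members, with 82 of 85 above 0 against 49.3% of all genes. Of these, 2 were higher at an unadjusted p of 0.05, as were 1.5% of all genes, and 0% of genes were called. Rpl4 differed by 0.18 (SE 0.0739, adjusted p = 1, edgeR) and Rpl17, near the exit of the tunnel, by 0.19 (SE 0.0852, adjusted p = 1, edgeR). In Rpl6 and Rps3 every LO mouse stood above every SO mouse, as in 0.259% of all genes. With the GC content and length trend taken out, the median between LO and SO was 0.043. DESeq2 called no member between LO and SO or between PF and LO. Between PF and LO the median member was 0.13, with 83 of 85 above 0 against 51.2% of all genes, and 0% of genes were called. Without the mice numbered 1 it was -0.010 with 33 of 85 above 0, and without mouse 1 of the PF group alone it was -0.036, so the difference between PF and LO rested on that mouse. By library sizes only it was -0.056. Rps27l was the 1 member at an unadjusted p under 0.05 between PF and LO (0.26, SE 0.0896, adjusted p = 0.437, edgeR). The comparisons at one time share their groups, and their values are given side by side and not as separate support.

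At 12 weeks the widest median was that between PF and LO, which was close to its size at 32 weeks. Between PF and SO the median member was 0.027, with 68 of 84 above 0 against 44.8% of all genes. Between PF and LO it was 0.12, with 81 of 84 above 0 against 49.9%, and 2 members were higher at an unadjusted p of 0.05 against 4.31% of all genes. Between LO and SO it was -0.074, with 5 of 84 above 0 against 50.6%. No member and 0% of all genes were called by edgeR in any of these 3 comparisons, and DESeq2 called no member in them. At an unadjusted p under 0.05 there were no members between PF and SO and 1, which was lower, between LO and SO. Rps27l was 0.28 higher on PF than on LO (SE 0.108, adjusted p = 0.492, edgeR), and Rpl14, a large-subunit protein, was 0.16 higher on PF than on LO (SE 0.0697, adjusted p = 0.525, edgeR) and -0.17 on LO against SO (SE 0.0697, adjusted p = 0.999, edgeR).

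With the GC content and length trend taken out, the PF against LO median at 12 weeks was -0.0081, and the PF against SO median was -0.066 with 7 of 84 above 0, next to a median of -0.061 over all genes. The order of the diets at 12 weeks thus changed with the scaling, and the PF against SO median at 32 weeks stayed above 0 in all settings tried.

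**Figure D5:**
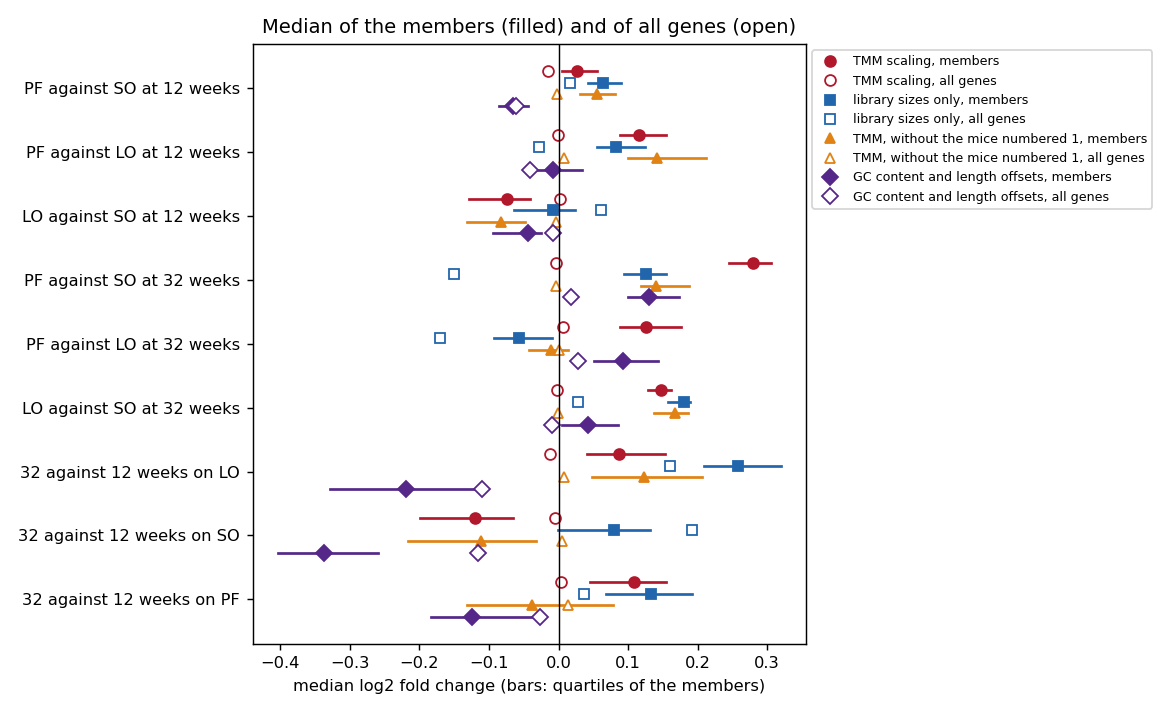
The median log2 fold change of the members (filled, with bars from the lower to the upper quartile) and of all genes tested (open) in the 6 diet and 3 time comparisons, under TMM scaling, library sizes only, TMM without the mice numbered 1, and with GC content and length offsets. PF against SO at 32 weeks has filled points from 0.13 to 0.28 and open points from -0.15 to 0.018, and in the time comparisons the filled points fall on both sides of 0.

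Between 12 and 32 weeks the diets went in different directions under TMM scaling. On LO the median member differed by 0.087, with 71 of 85 above 0 against 47.8% of all genes. On PF it was 0.11, with 74 of 85 above 0 against 50.7%. On SO it was -0.12, with 8 of 85 above 0 against 49.2% of all genes. No member was called on any diet by edgeR, where 2.7% of all genes were called on LO, 6.46% on SO and 0.0301% on PF. On LO 7 members were higher at an unadjusted p of 0.05, against 11.4% of all genes, and on SO 4 were lower, against 7.11%.

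Rpl14 was the member with the smallest p on LO. It stood at 373, 328, 343, 366 and 389 CPM at 12 weeks and at 408, 401, 428, 470 and 435 at 32 weeks, with every mouse of the later time above every mouse of the earlier, as in 1.99% of all genes. The log2 difference was 0.25 (SE 0.0805, adjusted p = 0.0763, edgeR), and DESeq2 called it as the only member, with an adjusted p of 0.0361, among 6.09% of genes called. With the GC content and length trend taken out its difference was -0.016 (adjusted p = 0.908, edgeR). On SO, Rpl10, a large-subunit protein near the tRNA path, differed by -0.20 (SE 0.0775, adjusted p = 0.128, edgeR), Rpl34 by -0.20 (SE 0.0900, adjusted p = 0.209) and Rpl15 by -0.17 (SE 0.0748, adjusted p = 0.209). On PF, Rpl22l1 differed by 0.34 (SE 0.126, adjusted p = 0.362, edgeR), Rpl14 by 0.19 (SE 0.0805, adjusted p = 0.414) and Rps24 by -0.97 (SE 0.457, adjusted p = 0.472), the last from 3 PF mice in the high range at 12 weeks and none at 32.

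The direction of the time comparisons depended on the scaling. By library sizes only, the median member was 0.26 on LO, where 18 members and 7.97% of all genes were called higher, and 0.079 on SO, next to medians over all genes of 0.16 and 0.19. With the GC content and length trend taken out, it was -0.22 on LO and -0.34 on SO, next to -0.11 and -0.12 over all genes. In that fit 10 members were called lower on LO, where 14.6% of all genes were called lower, and 36 of 85 were called lower on SO, where 12.7% were. On PF the median was -0.12 in that fit and -0.037 without the mice numbered 1. Without those mice 3 members were called higher on LO, where 2.78% of all genes were called in either direction. The 6 ventral prostate secretion genes, which hold a large part of all counts, had a median sum of 218000 CPM at 12 weeks and 149700 at 32 weeks on LO, 284700 and 158900 on SO, and 265000 and 263200 on PF, with 2 of the 6 called lower on LO and 2 on SO. Their part in the members' values was not tested.

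The change of a diet difference from 12 to 32 weeks was tested directly as an interaction in the 6-group fit. For PF against SO the median member gave a change of 0.23, with 8 members at an unadjusted p of 0.05 and higher. For LO against SO it was 0.21 and for PF against LO 0.0043. No member and 0% of all genes were called in any of the 3 by edgeR, and DESeq2 called no member. At an unadjusted p under 0.05 there were 4 members for LO against SO and 0 for PF against LO. The share of all genes at that unadjusted limit is not given for these changes, so the counts say nothing particular of the members. Without the mice numbered 1 the medians were 0.090, 0.26 and -0.16 in the same order. Rps19bp1 (0.39, SE 0.165, adjusted p = 0.428, edgeR), Rpl14 (0.26, SE 0.114, adjusted p = 0.456) and Rpl10 (0.25, SE 0.110, adjusted p = 0.456) had the smallest p for PF against SO. Rpl14 also had the smallest for LO against SO (0.32, SE 0.114, adjusted p = 1, edgeR).

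Other genes of the pathway were taken as lists. Of 17 other genes with TOP mRNAs, mostly elongation and initiation factors, all 17 stood above 0 between PF and SO at 32 weeks, with a median of 0.21, none called and 8 higher at an unadjusted p of 0.05. Eef1b2, an exchange factor of elongation factor 1, had 0.37 (SE 0.0922, adjusted p = 0.278, edgeR), Naca, which binds nascent chains, 0.27 (SE 0.0852, adjusted p = 0.362), and Eef1a1 0.19 (SE 0.0854, adjusted p = 0.444). Eef2, which moves the ribosome along the mRNA, had 0.020 (SE 0.242) and Hnrnpa1 0.0029 (SE 0.0674). From 12 to 32 weeks on SO 1 of the 17 was called lower.

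Of 77 mitochondrial ribosomal protein genes, which build the separate ribosome of the mitochondrion, 76 were tested, and 75 of them stood above 0 between PF and SO at 32 weeks, with a median of 0.21, none called and 15 at an unadjusted p of 0.05. All 76 were above 0 between PF and LO, with a median of 0.16. The summed levels at 32 weeks overlapped, with medians of 1851 CPM on PF and 1844 on LO. They spanned 1769 to 2634 CPM on PF and 1694 to 1944 on LO. Fold changes of this list were not taken without mouse 1 of the PF group. The mean of the mitochondrial genes followed the cytosolic score over the 30 mice at a Spearman's rho of 0.726, with scaling and base composition shared. The other TOP genes did so at 0.557. Of 36 tested genes of ribosome biogenesis, the nucleolar factors that assemble the subunits, 32 were above 0 between PF and SO at 32 weeks, with a median of 0.096 and none called. Of 13 genes of mTORC1 and TOP control, among them Mtor, Larp1 and Myc, 5 were above 0, with a median of -0.034 and none called. From 12 to 32 weeks on LO 0 of these 13 were above 0 and 1 was called lower.

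Cell type markers moved with the score to different degrees. After group means were removed, the mean of 5 smooth muscle genes correlated with the score at a Spearman's rho of 0.766 over 30 mice. That of 8 luminal epithelial genes did so at 0.472, of 4 adipocyte genes at 0.452 and of 4 basal epithelial genes at 0.423. Scaling and base composition are shared here too. The median smooth muscle sum was 3170 CPM in the mice numbered 1 and 2410 in the others. For luminal genes it was 3530 and 3050, for basal genes 135 and 111, and for adipocyte genes 73.7 and 127. The lists of fibroblasts (0.223), macrophages (0.186), red blood cells (0.168), endothelium (0.0429), T cells (-0.0790), ventral prostate secretion (-0.231) and B and plasma cells (-0.239) lay lower. Between PF and SO at 32 weeks the summed smooth muscle level spanned 1839 to 2762 CPM on PF and 2149 to 3339 on SO, and the luminal level 2831 to 4010 and 3019 to 3602, so both overlapped. In the same comparison all 4 red blood cell genes were higher on PF at an unadjusted p under 0.05, with a median log2 fold change of 2.58, and their sum spanned 32.7 to 467 CPM on PF and 16.9 to 66.3 on SO. Of the 4 adipocyte genes 3 were above 0 and 2 at an unadjusted p under 0.05, with a median of 1.81 and sums of 44.1 to 484 and 26.7 to 193 CPM. All 6 secretion genes were above 0 and 3 at an unadjusted p under 0.05, with a median of 0.47 and sums of 128700 to 301400 and 146700 to 173400 CPM. The sums of these 3 lists overlapped between the diets too. With time, all 6 B and plasma cell genes were called higher on SO and 2 on LO, 5 of 5 T cell genes and 3 of 5 macrophage genes on SO, and 3 of 4 basal genes on LO and 2 on SO, and no marker gene was called between diets. The part of the cell mixture in the members' values was not tested.

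The 10 genes outside the set that were most like the score, out of 9132 with a mean of at least 10 CPM, were 2410006H16Rik (Spearman's rho 0.891), Ubxn1 (0.884), Ndufb11 (0.874), Cox7c (0.871), Use1, Bcl7c, Nop53, Nenf, Rpl10a-ps1 and Npm3, over 30 mice after group means were removed. Their rho lay between 0.858 and 0.891. The genes of lowest rho were Usp40 (-0.874), Rufy2 (-0.863), Opa1 (-0.862), Dpp8 (-0.849) and Anapc1 (-0.847). The main transcripts of the first 10 had a median length of 871 bases and those of the last 5 of 5049 bases, while the members had 775 and all genes 2688.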

How the data were processed

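RNA from the ventral prostate of 30 mice, with an RNA integrity number above 8, was made into stranded mRNA libraries (TruSeq) and sequenced from both ends. The authors deposited raw read counts per gene, 1 table per mouse, made with HTSeq after alignment with TopHat. The submitters' processing notes name the build GRCm38.p6 and DESeq2. The strand setting and annotation of the counting are not given in the sources used here. Lines that name no gene were left out. Reads without a unique place make up 16.0% to 20.3% of the counted alignments, which can lower the counts of genes with close copies.

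Genes were kept by the edgeR 4.0.16 filter on the groups, libraries were scaled by TMM, and its quasi-likelihood test was applied (two-sided, R 4.3.3), with Benjamini-Hochberg adjustment over all genes and a threshold of 0.05. Diets were compared within a time point in 1 fit of 15 mice. Time points and changes of diet differences used 1 fit of 30 mice. Standard errors (SE) of the log2 fold changes came from the F statistics of the test. CPM carry a prior count of 2 on the log2 scale. Numbers of counts per mouse, 27590631 to 41301707, leave little counting error for most members, and the spread between mice sets the precision. Labels do not say how the mice were housed or processed, so p-values measure the spread between these samples.

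The members and lists were chosen with earlier results of these data known. Named members were the stalk genes, fusion proteins, Rps6, Rpl3, Rpl4, Rpl5, Rpl11, Rpl41, the paralogs and their partners, up to 3 members per direction with the smallest p in a comparison, the 3 highest and 3 lowest per length, the 3 that deviated most from the score (Rpl3l, Rpl36 and Rplp1), and the 10 other genes most like the score. Rpl9, Rps24, the closest and furthest members of the score, the members whose groups did not overlap, Rpl41 and Rps27rt by level, and the least similar genes were named after their values were seen.

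Alternatives were DESeq2 1.42.0, other size factors, other filters, a robust fit, other sets of samples, the mouse number as a block, other definitions of the score and each mouse left out. Added after seeing the data were the fits without the mice numbered 1, with GC content and length offsets (also with the block), and DESeq2 with the block. The statistics were tested on simulated counts. Single values of some genes are not reported here.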

Additional observations from a re-analysis of the deposited data

Results flagged for a closer look

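Each value here lay further from the other 4 mice of its group than Dixon's 95% critical value of 0.71 of the group's range, which chance alone passes in about 1 of 20 groups. The score of mouse 1 of the PF group at 32 weeks was 8.86, against 8.19 to 8.21 in the others. In the same mouse Rplp1 (1383 CPM), Rpl36 (381.7 CPM) and Rpl14 (575.6 CPM) stood apart as the highest of the group. Rplp1 was also apart as the highest in mouse 1 of LO at 12 weeks (1020 CPM), of LO at 32 weeks (971.9 CPM) and of SO at 32 weeks (964 CPM), and Rpl36 in mouse 1 of LO at 12 weeks (246.9 CPM). In mouse 1 of SO at 32 weeks Rpl9 (493.9 CPM) and Rps27l (88.78 CPM) were apart as the lowest. Rps24 was apart as the highest in LO mouse 4 at 12 weeks (2370 CPM), SO mouse 1 at 12 weeks (2573 CPM) and SO mouse 5 at 32 weeks (2752 CPM).

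Over all members, 85 of the 510 combinations of a member and a group (16.7%) passed this limit. Of the 85, 50 were members with mouse 1 of the PF group at 32 weeks as the highest, so the members of 1 mouse make up most of them and do not count as separate events.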

How the results depend on the processing

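The reported count of members called was 0 in every comparison. Of 345 such counts under an alternative, 332 were also 0 and 13 were above 0. Of 231 medians, 221 moved by less than the pooled SD of the score between mice. Of 78 score values, 75 moved by less than their SD, and 1045 of 1075 results of single members kept direction and side of the threshold. In every fit with 1 mouse left out 0 members were called. By DESeq2, 1 member was called between PF and SO at 32 weeks and 1 on LO with time. With time on LO, 18 were called by library sizes only, 3 without the mice numbered 1, 10 with GC content and length offsets and 1 at an adjusted p under 0.1. With time on SO, 36 were called with those offsets.

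The replicate block called 0 members in each of the 12 comparisons by edgeR. DESeq2 with the block called 6 between PF and SO at 32 weeks (Rps25, Rps4x, Rpl4, Rps27l, Rpl17 and Rps13), 6 with time on LO, 1 on SO and 1 on PF, against 1.5%, 8.44%, 11.2% and 1.69% of all genes. The offsets with the block called 30 lower with time on LO and 67 on SO, against 16% and 14.2% of all genes. Correlations of same-numbered mice ran from -0.403 to 0.533 over pairs of groups, and 9 of 30 mice, among them the 6 numbered 1, correlated best with their own number.

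That SD is wide: of the 231 medians 44 moved by over 1.5 times, and 16 of these turned sign. PF against SO at 32 weeks fell from 0.28 to 0.11 without PF mouse 1, 0.14 without the mice numbered 1 and 0.13 by library sizes only and with the offsets. PF against LO at 32 weeks went from 0.13 to -0.036, -0.010 and -0.056 in the first 3 of these. With time on PF it went from 0.11 to -0.038 without that mouse and -0.037 without the mice numbered 1. PF against SO at 12 weeks, at 0.027, ranged from -0.066 to 0.065, and LO against SO went from -0.074 to -0.0079 by library sizes only at 12 weeks and from 0.15 to 0.043 with the offsets at 32 weeks. Medians moved past the SD with the offsets, without and with the block, to -0.0081 and -0.014 for PF against LO at 12 weeks, and with time to -0.22 and -0.22 on LO, -0.34 and -0.34 on SO and -0.12 and -0.13 on PF. By library sizes only they were 0.26 on LO and 0.079 on SO with time. The score of LO relative to all mice moved to 0.095 at 12 weeks and -0.12 at 32 weeks with the offsets, and to 0.16 at 32 weeks by library sizes only.

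Direction reversed by library sizes only for Rpl7l1 between PF and SO at 32 weeks (-0.062) and for Rpl34 (0.0016) and Rpl15 (0.034) with time on SO. It reversed with the offsets, without and with the block, for Rpl14 with time on LO (-0.016 and -0.013) and for Rpl22l1 with time on PF (-0.016 and -0.00867). With 1 mouse left out, PF against SO at 32 weeks ranged from -0.029 to 0.37 for Rplp0, -0.70 to 1.24 for Rplp1, -0.35 to 0.89 for Rplp2, -0.090 to 0.57 for Fau, -0.027 to 0.43 for Rpl41 and -1.12 to 1.64 for Rpl36, lowest without PF mouse 1, and from -0.40 to 0.34 for Rps24, highest without SO mouse 5. The cause was not tested. Small shifts of members with wide spread, such as Rpl36, were not detectable with 5 mice.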

Other observations

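The 7 mice in the high range of Rps24 were LO mouse 4, SO mouse 1 and PF mice 1, 3 and 4 at 12 weeks, and LO mouse 1 and SO mouse 5 at 32 weeks. Of 16605 genes compared, the same 7 mice were also the 7 highest for Polr3a, a subunit of RNA polymerase III, with 38.0 to 42.6 CPM against 14.7 to 26.8 in the other 23, for Brf1, a transcription factor of the same polymerase, with 121 to 146 against 69.3 to 93.6, and for Gm2830, with 7.81 to 9.76 against 1.67 to 4.17. They were the 7 lowest for Akr1e1, an aldo-keto reductase, with 0 to 0.134 CPM against 24 to 46.2, for Fbxo36, with 1.01 to 1.61 against 5.64 to 8.75, and for Fam177a, with 22.3 to 27.1 against 31.1 to 55.7. Polr3a lies 66 bases from Rps24 on chromosome 14, on the opposite strand. This set of genes was found by searching all genes after the values of Rps24 were seen.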
